A study of Homo sapiens with 6 samples.

Results

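The unfolded protein response and the machinery that moves proteins into and out of the endoplasmic reticulum (ER) were examined as a list of 40 genes in cells with and without knockdown of CNOT3. The list was chosen by gene name, with earlier results of these data known. Its shares set beside those of all genes are therefore descriptions and not independent support. It holds sensors and transcription factors, chaperones, disulfide isomerases, ER degradation factors, translocon subunits, signal peptidase subunits and COPII coat proteins. Of the 40 genes, 38 had a probe set that the platform annotation assigns to that gene alone, and all 38 were bright enough to be tested, among 12630 genes tested in all. SYVN1, the ubiquitin ligase of ER degradation, was measured only by a probe set that is also assigned to a microRNA gene, and SEC61G, the small subunit of the translocon channel, was not matched to any probe set, so neither has a value here.

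RNA was measured on 6 Affymetrix arrays in A549 cells, a human lung adenocarcinoma (non-small cell) line. The cells came as 3 stable lines made with lentivirus, each carrying a short hairpin RNA that tetracycline or its analogue doxycycline (DOX) switches on. The control line, shNTC, has a hairpin with no target, and lines shCNOT3-1 and shCNOT3-2 have different hairpins directed at CNOT3, which belongs to the CCR4-NOT complex that removes poly(A) tails from mRNAs. Each line was grown without DOX and with DOX at 1 ug/ml for 72 hours, with 1 array per line and state. All 6 arrays therefore come from A549 cells with an integrated hairpin vector, and the sources used here do not say whether a line was 1 clone.

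Within a line, the array with DOX is compared with the array without, to ask what changes when CNOT3 is depleted. The difference in log2(intensity + 1) between the state with and the state without DOX is called the DOX change below. The knockdown change averages the DOX changes of lines shCNOT3-1 and shCNOT3-2 and is given with the SD of the lines (n = 2) or the standard error (SE) of a linear model. The change beyond shNTC is the knockdown change minus the DOX change of shNTC. The labels mention no separate cultures, so a p-value reflects only how these arrays spread, which may be technical, and the number of arrays limits the precision.

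Of the CNOT3 intensity, 93.4% was left with DOX in shNTC, 36.1% in shCNOT3-1 and 20.5% in shCNOT3-2, and its knockdown change was -1.86 ± 0.36 (SE, adjusted p = 0.0677 in limma). All 7 epithelial markers were above the filter level on every array, with summed intensities of 101651 to 116527. Sums for the leukocyte, fibroblast, endothelial and muscle lists did not exceed 643. In each of the leukocyte, fibroblast and endothelial lists 1 marker (CD14, COL1A1 and PECAM1) was also above that level on every array. EPCAM, the dimmest epithelial marker, read 132 to 372, beside 107 to 277 for PECAM1 and 350 to 553 for COL1A1. Over all 12630 genes the median DOX change was -0.01 in shNTC, 0.05 in shCNOT3-1 and 0.02 in shCNOT3-2. The 3' to 5' ratio of ACTB, a sign of RNA quality, moved from 1.58 to 1.47 with DOX in the control line, from 1.33 to 1.42 in shCNOT3-1 and from 1.36 to 1.45 in shCNOT3-2, and its part in the results was not tested.

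Proteins that enter the secretory pathway carry a signal peptide, which the signal recognition particle brings to the ER membrane. The SEC61 translocon threads the chain into the lumen, signal peptidase cuts the signal peptide off, and chaperones and disulfide isomerases fold the product before COPII vesicles carry it to the Golgi. When unfolded proteins build up, the sensors IRE1 (encoded by ERN1), ATF6 and PERK start the unfolded protein response. IRE1 splices the XBP1 mRNA so that it encodes an active transcription factor, ATF6 is cut to release another, and PERK slows translation through eIF2 alpha. Many ER chaperone genes are known targets of ATF6 and XBP1 through the ER stress response element (ERSE), at which NF-Y binds the CCAAT part and ATF6 the CCACG part, or through a shorter relative, ERSE-II.

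The elements are shown because they are the sequence by which part of the list is known to be linked to these factors. RefSeq promoters (GRCh38.p14) were given for 36 of the 40 members, as windows of 250 bases before and 50 bases after each annotated start. Both strands were searched for ERSE, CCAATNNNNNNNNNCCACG, and for ERSE-II, ATTGGNCCACG. ERSE was found in 7 of the 36 members (19.4%), against 25 of 27305 genes in the table (0.0916%). ERSE-II was found in 3 members (8.33%), against 19 of 27305 genes (0.0696%). The list holds known targets of these factors, so its higher share is a description and not a test. A match is a description of the letters and not proof of a bound site. The 250 bases before the start are given for XBP1, the member with the lowest knockdown change, at chr22:28800570-28800819 on the minus strand, and for HSPA5, the classical target gene of the response, at chr9:125241344-125241593 on the minus strand. Capitals mark the ERSE, which both hold in the sense orientation.

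XBP1: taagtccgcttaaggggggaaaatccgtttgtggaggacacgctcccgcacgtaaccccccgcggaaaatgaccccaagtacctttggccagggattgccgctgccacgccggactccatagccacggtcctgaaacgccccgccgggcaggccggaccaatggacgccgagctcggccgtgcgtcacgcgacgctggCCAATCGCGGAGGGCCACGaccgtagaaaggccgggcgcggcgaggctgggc
HSPA5: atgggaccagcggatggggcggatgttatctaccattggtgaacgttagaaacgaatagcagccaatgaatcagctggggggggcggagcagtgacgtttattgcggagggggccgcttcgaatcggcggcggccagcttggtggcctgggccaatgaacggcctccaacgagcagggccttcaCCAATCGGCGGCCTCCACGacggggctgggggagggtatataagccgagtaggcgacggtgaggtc

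The element regions of the other 8 members follow, with 12 bases on each side and written along the gene's own strand. An element on the opposite strand reads CGTGG first and ATTGG or CCAAT last. HSP90B1 holds an ERSE in each orientation and HYOU1 holds ERSE-II in 2 places; the first 6 lines show ERSE and the last 4 ERSE-II.

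CALR, chr19:12938372-12938414, plus strand: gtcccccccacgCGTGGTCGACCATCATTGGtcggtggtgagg
CANX, chr5:179698766-179698808, plus strand: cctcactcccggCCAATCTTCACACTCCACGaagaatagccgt
CRELD2, chr22:49918542-49918584, plus strand: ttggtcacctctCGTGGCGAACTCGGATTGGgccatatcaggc
HSP90B1, chr12:103930204-103930246, plus strand: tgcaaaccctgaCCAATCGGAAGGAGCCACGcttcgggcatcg
HSP90B1, chr12:103930309-103930351, plus strand: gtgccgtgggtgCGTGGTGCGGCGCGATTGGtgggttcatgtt
PDIA6, chr2:10812841-10812883, minus strand: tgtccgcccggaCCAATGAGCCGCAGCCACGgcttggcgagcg
HERPUD1, chr16:56932013-56932047, plus strand: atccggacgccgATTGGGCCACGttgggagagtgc
HYOU1, chr11:119057262-119057296, minus strand: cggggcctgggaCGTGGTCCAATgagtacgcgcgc
HYOU1, chr11:119057368-119057402, minus strand: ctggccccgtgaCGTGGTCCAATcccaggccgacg
SDF2L1, chr22:21642102-21642136, plus strand: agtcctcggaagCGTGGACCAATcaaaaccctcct

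Most of the list was lower with DOX in the knockdown lines. DOX changes were below 0 in both shCNOT3 lines for 30 of the 38 members (78.9%), against 3394 of 12630 genes (26.9%), and above 0 in both for 3 members, HERPUD1, SSR3 and SPCS1, against 33.2% of all genes. The other 5 members went opposite ways in the hairpin lines, against 5042 of 12630 genes. The median DOX change of the members was 0.12 in shNTC, -0.29 in shCNOT3-1 and -0.24 in shCNOT3-2. Median knockdown change was -0.28, with a range of -1.05 (XBP1) to 0.33 (SSR3), against a median of 0.03 over all genes. In bulk RNA, less RNA per cell and fewer cells of a kind cannot be told apart, and scaled intensities are relative to all RNA on the array.

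In shNTC the members leaned the other way. With DOX 27 of 38 members were higher in that line, against 48.8% of all genes. The pattern of lower in both shCNOT3 lines and higher in shNTC was seen in 22 members, against 13.5% of all genes. Both shCNOT3 arrays with DOX lay below all 4 other arrays for 22 members, against 12.8% of all genes, and above them for 1 member, HERPUD1, against 16% of all genes.

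No member passed the threshold of 0.05 after adjustment over all genes in limma, where 28 of 12630 genes (0.222%) did. The lowest adjusted p among the members was 0.0800, for XBP1. At an unadjusted p under 0.05 there were 13 members with a knockdown change below 0 (34.2%), against 7.08% of all genes, and 1 above 0, SSR3, against 7.45% of all genes. The 13 became 8 when probe sets were averaged per gene, against 6.03% of all genes, and 6 without the variance trend, against 5.67%. Without line shCNOT3-1 the median knockdown change of the members was -0.24, against -0.28 with both lines. For the change beyond shNTC, a model with 1 residual degree of freedom, no gene passed the adjusted threshold in limma (0%), and the lowest adjusted p of a member was 0.303. At an unadjusted p under 0.05 that change was below 0 for 8 members, against 3.92% of all genes, and above 0 for 0 members, against 4.48%. On their brightest probe sets the 8 were XBP1, HSP90B1, PDIA3, P4HB, SEC61A1, SSR4, SRPRB and SPCS2. The change beyond shNTC was below 0 for 34 of 38 members, against 5864 of 12630 genes. Its median was -0.33 over the members, against 0.05 over all genes.

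The precision of single genes was limited. The SE of the knockdown change was 0.12 to 0.26 over the members, and the SD between the hairpin lines had a median of 0.19 and reached 0.76 (DNAJB11). The hairpin lines also differed in which members were lowest. The DOX change was lower in shCNOT3-1 than in shCNOT3-2 for 22 of 38 members, against 6029 of 12630 genes, and less CNOT3 intensity was left in shCNOT3-2. The plot of DOX changes by line shows this spread for every member.

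**Figure D1:**
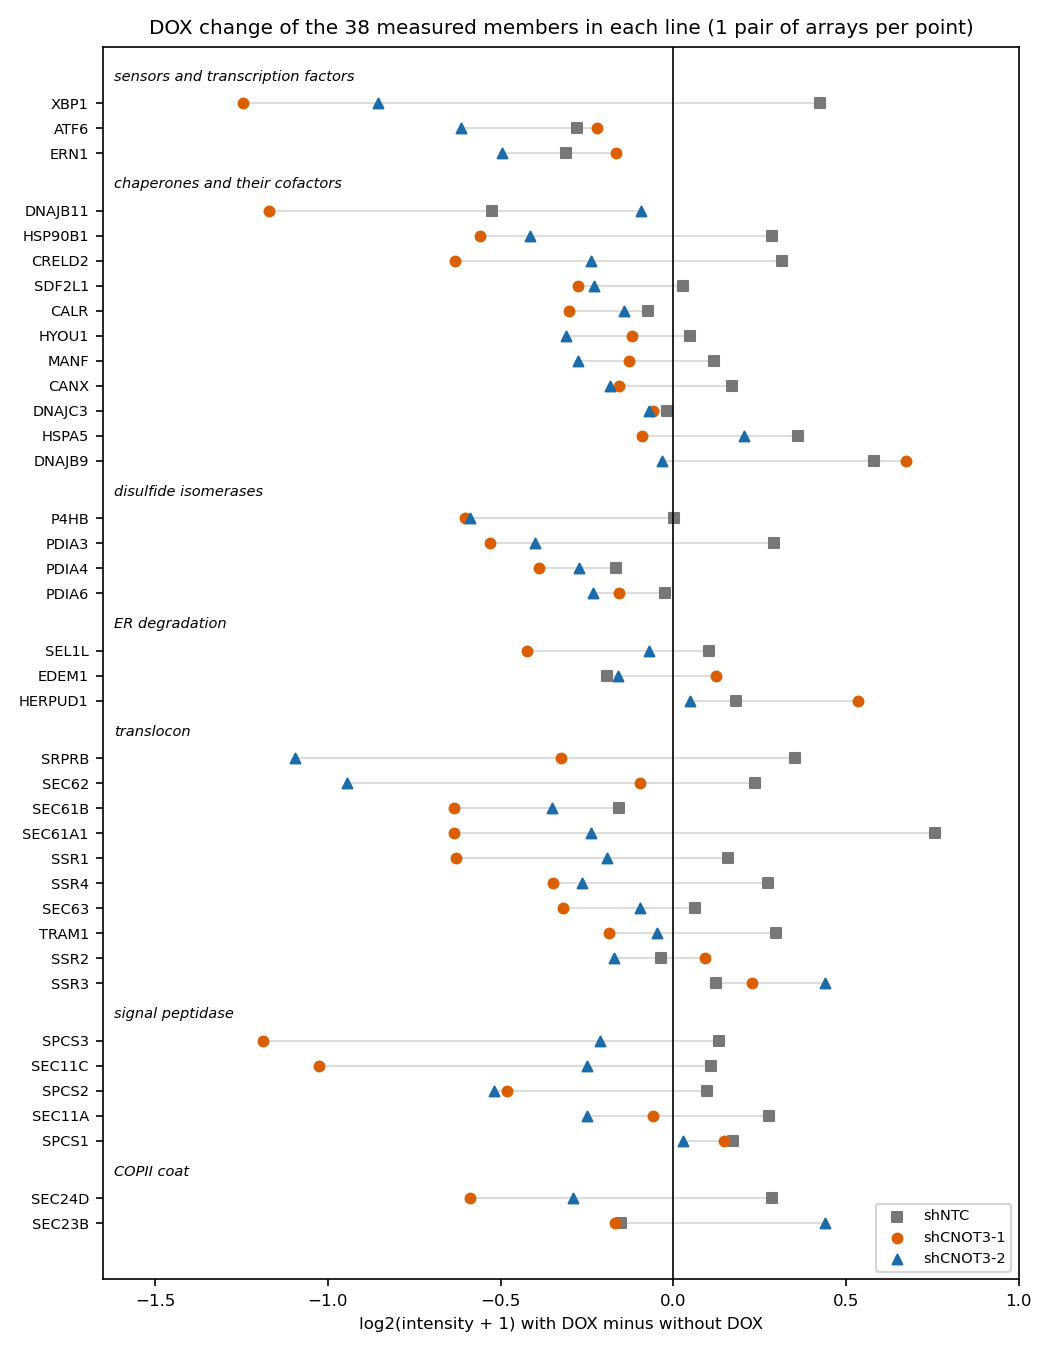
DOX change (log2(intensity + 1) with DOX minus without) of the 38 measured members, grouped by role and ordered within a role by knockdown change. Each point is 1 pair of arrays (grey squares shNTC, orange circles shCNOT3-1, blue triangles shCNOT3-2), and a grey bar joins the 3 lines of a gene. Both shCNOT3 points lie left of 0 for 30 of 38 members, and the shNTC point lies right of 0 for 27.

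Among the sensors and transcription factors, XBP1 stood lowest. The XBP1 probe set went from an intensity of 2111 without DOX to 2834 with DOX in shNTC, from 2833 to 1193 in shCNOT3-1 and from 3062 to 1693 in shCNOT3-2. Its intensity with DOX was thus higher in the control line, at 134% of that without, and lower in both knockdown lines, at 42.1% and 55.3%, and the 2 knockdown arrays were the lowest of the 6. The knockdown change was -1.05 ± 0.21 (SE, adjusted p = 0.0800 in limma), and the change beyond shNTC was -1.47 ± 0.35 (SE, adjusted p = 0.303). The array measures total XBP1 mRNA, and spliced and unspliced forms were not separated. A further XBP1 probe set was too dim for the filter.

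On their brightest probe sets ATF6 and ERN1 were also lowest on the 2 knockdown arrays, but in these genes shNTC moved the same way. ATF6 went from 1133 to 935 with DOX in shNTC, from 735 to 630 in shCNOT3-1 and from 959 to 626 in shCNOT3-2. The knockdown change was -0.42 ± 0.22 (SE, adjusted p = 0.416), and only -0.14 beyond shNTC. Another bright ATF6 probe set had the opposite sign, with DOX changes of 0.38 in shNTC, 0.81 in shCNOT3-1 and 0.98 in shCNOT3-2. ERN1, which encodes IRE1, went from 620 to 500 with DOX in shNTC, from 526 to 469 in shCNOT3-1 and from 484 to 343 in shCNOT3-2. Its knockdown change of -0.33 ± 0.23 (SE, adjusted p = 0.547) nearly equalled the DOX change of -0.31 in shNTC. For both genes the SE of the change beyond shNTC (0.39 for ATF6 and 0.41 for ERN1) exceeded the change itself.

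Of the 11 chaperones and their cofactors, 9 were lower in both shCNOT3 lines, with a median knockdown change of -0.22, and 2 (18.2%, against 7.08% of all genes) had a change below 0 at an unadjusted p under 0.05. HSP90B1, which encodes the ER chaperone GRP94, went from 8500 to 10369 with DOX in shNTC, from 9940 to 6745 in shCNOT3-1 and from 9442 to 7081 in shCNOT3-2. The 2 knockdown arrays lay below all others, at 67.9% and 75.0% of the same line without DOX, against 122% in shNTC. This gave a knockdown change of -0.49 ± 0.15 (SE, adjusted p = 0.208) and a change beyond shNTC of -0.77 (adjusted p = 0.441). A second bright HSP90B1 probe set did not share the rise in shNTC. Its DOX changes were -0.29 in shNTC, -0.41 in shCNOT3-1 and -0.01 in shCNOT3-2. DNAJB11, a J-domain cofactor of the chaperone BiP, went from 5621 to 3910 with DOX in shNTC, from 6105 to 2714 in shCNOT3-1 and from 4297 to 4031 in shCNOT3-2. Here the groups overlapped, because shNTC with DOX was also low and lay below shCNOT3-2 with DOX. DNAJB11 had a knockdown change of -0.63 with an SD of 0.76 between the lines (adjusted p = 0.315), and only -0.11 beyond shNTC.

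HSPA5 was singled out after its values were seen, because it encodes BiP, an abundant ER chaperone and a standard readout of the unfolded protein response. It went from 17038 to 21898 with DOX in shNTC, from 18978 to 17825 in shCNOT3-1 and from 19093 to 22003 in shCNOT3-2. The hairpin lines went opposite ways, at -0.09 and 0.20, and both lay below the 0.36 of shNTC. On average the knockdown change was 0.06 ± 0.15 (SE, adjusted p = 0.905), so HSPA5 was not among the lower members on its brightest probe set, although a second probe set gave -0.64 and the mean of its probe sets -0.29.

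The remaining chaperones had knockdown changes of -0.44 to 0.32. CRELD2, an EGF-like protein induced by ER stress, had DOX changes of 0.31 in shNTC, -0.63 in shCNOT3-1 and -0.24 in shCNOT3-2. The lectin chaperones calnexin (CANX) and calreticulin (CALR), which hold glycoproteins during folding, gave -0.17 and -0.22. HYOU1, a large HSP70 relative, gave -0.22, SDF2L1, a partner of DNAJB11, -0.25 and the secreted ER stress factor MANF -0.20. DNAJC3, which acts with BiP and also restrains PERK, was near its level without DOX at -0.06. DNAJB9, a J-domain protein of the IRE1 branch, was the highest at 0.32, with DOX changes of 0.58 in shNTC, 0.68 in shCNOT3-1 and -0.03 in shCNOT3-2.

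All 4 disulfide isomerases, which form and rearrange disulfide bonds in the ER lumen, were lower with DOX in both shCNOT3 lines. On their brightest probe sets all 4 were also lowest on the 2 knockdown arrays. Over all genes these shares were 26.9% and 12.8%. P4HB, the prototype protein disulfide isomerase, went from 14793 to 14818 with DOX in shNTC, from 13999 to 9224 in shCNOT3-1 and from 14355 to 9545 in shCNOT3-2. The intensity with DOX was 100% of that without in shNTC and 65.9% and 66.5% in the knockdown lines, whose DOX changes had an SD of only 0.01. The knockdown change was -0.60 ± 0.13 (SE, adjusted p = 0.0911), and the change beyond shNTC was the same size (-0.60, adjusted p = 0.526). With no block for the line, which drops the pairing, 191 genes passed the threshold in limma, against 28 in the main model. P4HB was among the 191 (adjusted p = 0.0183).

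PDIA3, the isomerase that works with calnexin and calreticulin, went from 11025 to 13506 with DOX in shNTC, from 11999 to 8304 in shCNOT3-1 and from 11679 to 8840 in shCNOT3-2. Its knockdown change was -0.47 ± 0.15 (SE, adjusted p = 0.210) and its change beyond shNTC -0.76 (adjusted p = 0.420). PDIA4 went from 9058 to 8072 with DOX in shNTC, from 9280 to 7080 in shCNOT3-1 and from 8978 to 7422 in shCNOT3-2. For PDIA4 the control line moved in the same direction, so that a knockdown change of -0.33 ± 0.14 (SE, adjusted p = 0.334) left -0.17 beyond shNTC. PDIA6 had a knockdown change of -0.20.

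Of the 3 tested ER degradation factors, 1 was lower in both shCNOT3 lines (SEL1L), 1 was higher in both (HERPUD1) and 1 went opposite ways (EDEM1). Over all genes, 26.9% were lower and 33.2% higher in both. HERPUD1, a membrane protein of the degradation complex, went from 3872 to 4390 with DOX in shNTC, from 3788 to 5490 in shCNOT3-1 and from 4770 to 4931 in shCNOT3-2. It was the 1 member with both knockdown arrays above the 4 others, with a knockdown change of 0.29 ± 0.18 (SE, adjusted p = 0.497). Most of that came from shCNOT3-1, at 0.54 against 0.05 in shCNOT3-2 and 0.18 in shNTC. SEL1L, the partner of SYVN1, gave -0.25, with a knockdown change below 0 on all 4 of its bright probe sets, 2 of them lower in both lines, and EDEM1, which delivers misfolded glycoproteins, gave -0.02.

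**Figure D2:**
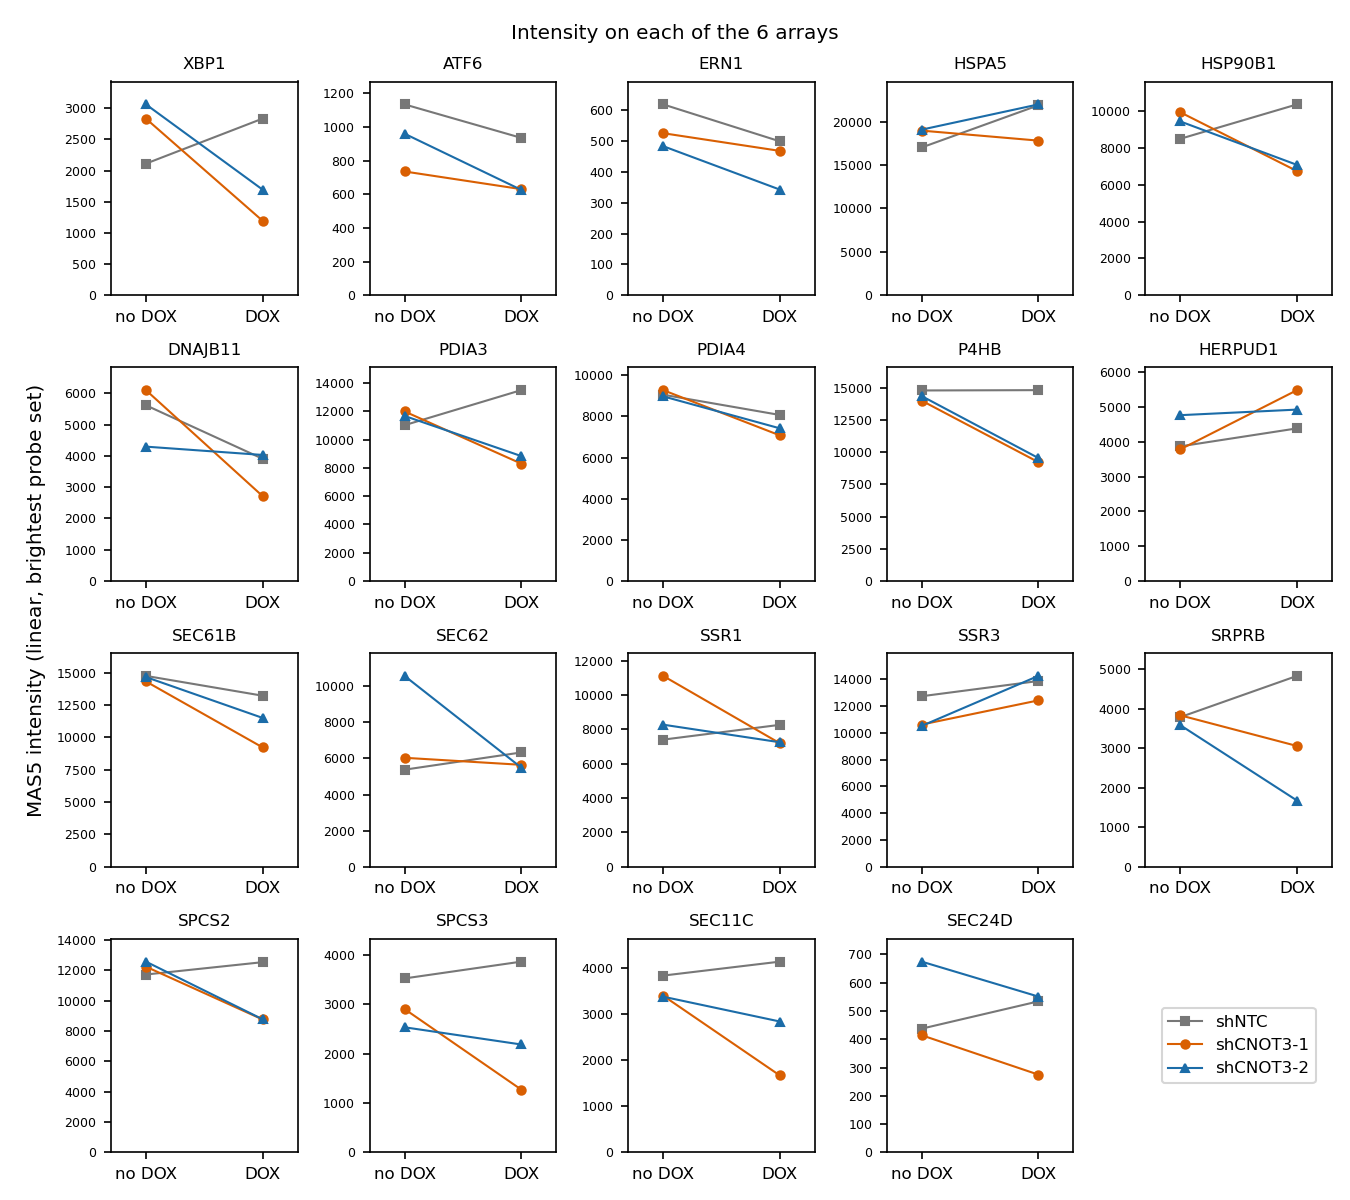
Linear MAS5 intensity without and with DOX on each of the 6 arrays for 19 of the members described with values on every array (SEC61A1 is not drawn), each panel starting at 0. Lines join the 2 arrays of a stable line (grey shNTC, orange shCNOT3-1, blue shCNOT3-2). XBP1, P4HB, PDIA3 and SPCS2 show both shCNOT3 lines below their level without DOX while shNTC is level or higher, whereas HSPA5 and SSR3 do not.

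In the translocon group 8 of 10 measured members were lower in both shCNOT3 lines, with a median knockdown change of -0.36. SEC61B, the beta subunit of the channel, went from 14763 to 13230 with DOX in shNTC, from 14333 to 9229 in shCNOT3-1 and from 14672 to 11512 in shCNOT3-2. Both knockdown arrays lay below all others, and the knockdown change was -0.49 ± 0.14 (SE, adjusted p = 0.165), with -0.33 beyond shNTC. SRPRB, the membrane-anchored subunit of the receptor for the signal recognition particle, had the lowest knockdown change of the group on its brightest probe set. It went from 3789 to 4833 with DOX in shNTC, from 3834 to 3057 in shCNOT3-1 and from 3583 to 1675 in shCNOT3-2, for a knockdown change of -0.71 ± 0.22 (SE, adjusted p = 0.202). The SD between the hairpin lines was 0.54, since shCNOT3-2 gave -1.10 and shCNOT3-1 gave -0.33. Its other bright probe sets gave -0.38 and -0.24, the latter also with plain _at probe sets first.

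SEC62, which serves post-translational import, went from 5377 to 6332 with DOX in shNTC, from 6036 to 5647 in shCNOT3-1 and from 10577 to 5495 in shCNOT3-2. The groups overlapped on this brightest probe set. Its knockdown change of -0.52 ± 0.21 (SE, adjusted p = 0.298 in limma) came mainly from the high value of shCNOT3-2 without DOX. The other bright SEC62 probe sets gave, in shCNOT3-1 and shCNOT3-2, -0.60 and -0.31, -0.90 and -0.90, -1.61 and -1.27, and 0.07 and -0.23. SSR1, the alpha subunit of the translocon-associated protein complex, went from 7407 to 8270 with DOX in shNTC, from 11124 to 7196 in shCNOT3-1 and from 8279 to 7255 in shCNOT3-2. Its knockdown change was -0.41 ± 0.16 (SE, adjusted p = 0.291), and the 2 knockdown arrays lay only just below the lowest control. SSR3, the gamma subunit of the same complex, went the other way, from 12724 to 13861 with DOX in shNTC, from 10611 to 12415 in shCNOT3-1 and from 10510 to 14243 in shCNOT3-2. Its knockdown change was 0.33 ± 0.13 (SE, adjusted p = 0.303), the knockdown arrays overlapped the others, and over the mean of its probe sets the sign turned (-0.02).

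The complex was thus not uniform: SSR4, the delta subunit, had DOX changes of 0.28 in shNTC and -0.35 and -0.26 in the knockdown lines, and SSR2, the beta subunit, had a knockdown change of -0.04. The channel subunit SEC61A1, named after its values were seen because its DOX change in shNTC was the largest of the members, went from 1849 to 3128 with DOX in shNTC, from 2880 to 1855 in shCNOT3-1 and from 2749 to 2331 in shCNOT3-2. With its knockdown change of -0.44 and a DOX change of 0.76 in shNTC, its change beyond shNTC was -1.19 ± 0.35 (SE, adjusted p = 0.403). The groups overlapped, since shNTC without DOX read as low as shCNOT3-1 with DOX. SEC63, the partner of SEC62, gave -0.21 and TRAM1, which helps signal sequences enter the channel, -0.12.

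Signal peptidase, the protease that removes signal peptides, had a median knockdown change of -0.50 over the brightest probe sets of its 5 members, of which 4 were lower in both shCNOT3 lines. That median depends on the probe set, since SPCS2, SPCS3 and SEC11A each had another bright probe set above 0. SPCS2, an accessory subunit, went from 11717 to 12531 with DOX in shNTC, from 12232 to 8758 in shCNOT3-1 and from 12566 to 8768 in shCNOT3-2. The hairpin lines were left with 71.6% and 69.8%, and the knockdown change was -0.50 ± 0.13 (SE, adjusted p = 0.148). With no block for the line, which drops the pairing, SPCS2 was among 191 genes passing the threshold in limma (adjusted p = 0.0494). Another bright probe set of SPCS2 did not share the fall, with DOX changes of 0.33 in shNTC, 0.17 in shCNOT3-1 and 0.01 in shCNOT3-2.

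SPCS3, a further accessory subunit, went from 3527 to 3867 with DOX in shNTC, from 2906 to 1274 in shCNOT3-1 and from 2537 to 2188 in shCNOT3-2. SEC11C, a catalytic subunit, went from 3843 to 4146 with DOX in shNTC, from 3406 to 1673 in shCNOT3-1 and from 3384 to 2845 in shCNOT3-2. Both genes were lowest on the 2 knockdown arrays but far lower in shCNOT3-1 than in shCNOT3-2. The knockdown change was -0.70 with an SD of 0.69 between the lines for SPCS3 (adjusted p = 0.230), whose sign turned when a plain _at probe set was preferred (0.10), and -0.64 with an SD of 0.55 for SEC11C (adjusted p = 0.224). The other catalytic subunit, SEC11A, gave -0.15, and SPCS1 gave 0.09.

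Of the 2 COPII coat members, SEC24D, a cargo adaptor of the coat, was lower in both shCNOT3 lines and SEC23B was not. SEC24D went from 438 to 534 with DOX in shNTC, from 414 to 275 in shCNOT3-1 and from 675 to 551 in shCNOT3-2. The groups overlapped, since shCNOT3-2 stayed above shNTC in both states, and the knockdown change was -0.44 ± 0.23 (SE, adjusted p = 0.416). SEC23B had DOX changes of -0.17 in shCNOT3-1 and 0.44 in shCNOT3-2.

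Several members are measured by more than 1 probe set, and these did not always give the same value. Of 101 member probe sets, 94 reached the filter level, and 62 of those were lower with DOX in both shCNOT3 lines, against 29.3% of all such 1-gene probe sets, while 10 were higher in both. Among 25 members with more than 1 such probe set, all probe sets had the same sign of the knockdown change in 16, and in 14 of these it was below 0 throughout. P4HB had the narrowest range of the 25, with 3 probe sets at -0.60 to -0.54. PDIA3 gave -0.80 to -0.47 and SEC63, with 4 probe sets, -0.86 to -0.21. SEC62, with 5, was below 0 in each but spread from -1.44 to -0.08.

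The sign differed between probe sets in 9 members: ATF6 (-0.44 to 0.89), ERN1 (-0.33 to 0.03), HSPA5 (-0.64 to 0.06), SSR1 (-0.48 to 0.04), SSR3 (-0.28 to 0.33), TRAM1 (-0.34 to 0.07), SPCS2 (-1.01 to 0.09), SPCS3 (-0.70 to 0.12) and SEC11A (-0.15 to 0.16). XBP1, DNAJB11, SEC61B and SEC24D each rest on 1 probe set at that level. Which transcript ends or isoforms the probe sets detect was not examined.

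**Figure D3:**
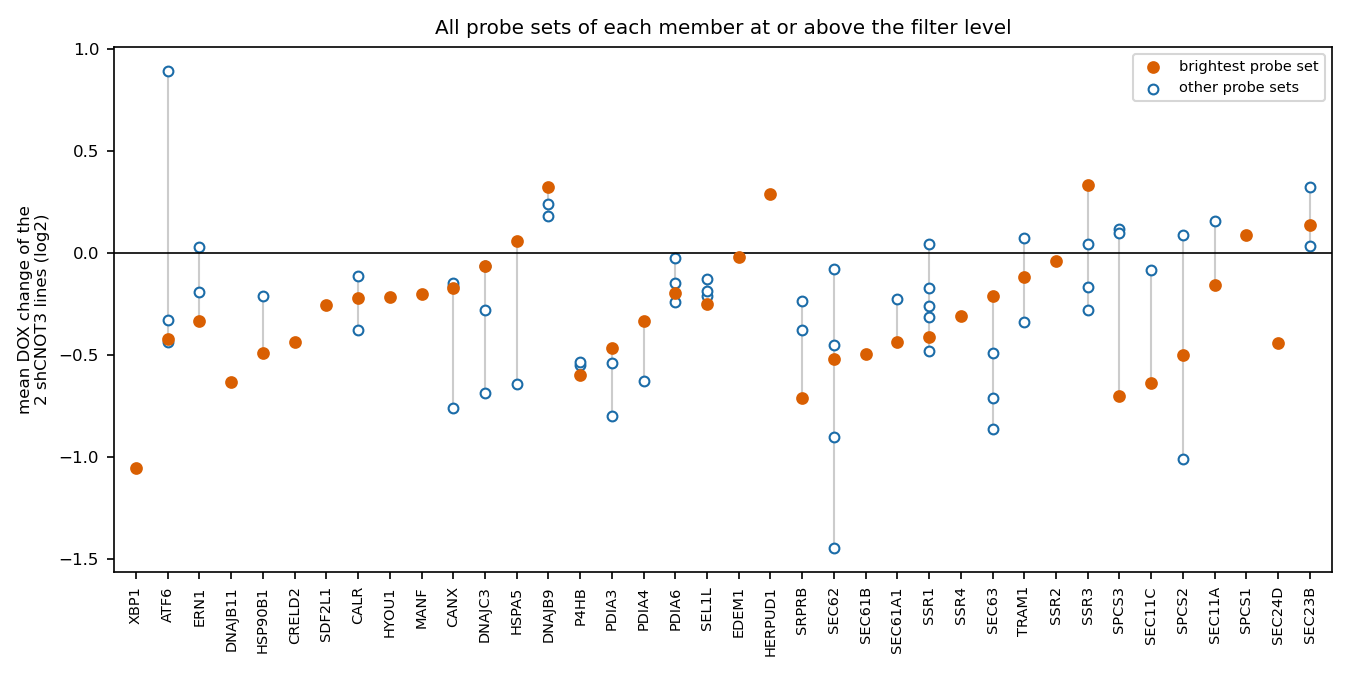
Knockdown change (log2, average of both shCNOT3 lines) of each of the 94 member probe sets at or above the filter level, by gene in the order of the roles. Filled orange points are the brightest probe set, used for the gene, open blue points are the others, and grey bars span a gene's probe sets. The probe sets of P4HB lie close together, while those of ATF6, SEC62, SPCS2 and SPCS3 are far apart.

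Members with and without an exact ERSE or ERSE-II match in the promoter windows are given side by side. Of the 10 members with ERSE or ERSE-II, 8 (80%, against 26.9% of all genes) were lower in both shCNOT3 lines, with a median knockdown change of -0.22. Of the 24 tested members in the table whose windows held neither, 19 (79.2%) were lower in both, with a median of -0.33. At an unadjusted p under 0.05, 2 of the 10 (20%) and 10 of the 24 (41.7%) had a knockdown change below 0, against 7.08% of all genes. Element holders ranged from XBP1 (-1.05) and HSP90B1 (-0.49), whose sequences are given above, to HSPA5 (0.06) and HERPUD1 (0.29). Another 34 genes outside the list held an element. Of the 20 that were tested, 5 (25%, against 26.9% of all genes) were lower in both shCNOT3 lines, with a median knockdown change of 0.00. The split between these groups was not tested.

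The rest of the pathway was examined with 91 further genes in 7 lists, of which 85 were tested. None passed the adjusted threshold in limma, and at an unadjusted p under 0.05 there were 12 with a change below 0 (14.1%, against 7.08% of all genes) and 4 above (against 7.45%). In both shCNOT3 lines 31 of 85 (36.5%) were lower, against 26.9% of all genes, and the median knockdown change was -0.06. As among the members, most were higher with DOX in shNTC (63 of 85, against 48.8% of all genes), and the median change beyond shNTC was -0.25.

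The oligosaccharyltransferase, which attaches N-linked glycans as chains enter the ER, was the list whose median came closest to that of the members. Of its 10 genes 6 (60%, against 26.9% of all genes) were lower in both shCNOT3 lines, and the median knockdown change was -0.24. STT3B, a catalytic subunit, went from 9168 to 10195 with DOX in shNTC, from 10242 to 6051 in shCNOT3-1 and from 10974 to 5892 in shCNOT3-2. Its knockdown change of -0.83 ± 0.14 (SE, adjusted p = 0.0534) stopped just short of the threshold. MAGT1, a subunit of the STT3B complex, gave -0.55 (adjusted p = 0.258) and OSTC, which belongs to the STT3A complex, -0.39 (adjusted p = 0.274).

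Among the 9 genes of the signal recognition particle list, 2 were lower and 3 higher in both shCNOT3 lines, with a median of 0.00. Over all genes, 26.9% were lower and 33.2% higher in both. SRP9, which with SRP14 forms the part of the particle that pauses translation, went from 17044 to 18026 with DOX in shNTC, from 20179 to 11589 in shCNOT3-1 and from 19676 to 12278 in shCNOT3-2. Its knockdown change was -0.74 ± 0.12 (SE), with an adjusted p that lay just above the threshold and rounds to 0.05. SEC61A2, a paralogue of SEC61A1, was higher with DOX in both lines, at 295 and 595 in shCNOT3-1 and 400 and 603 in shCNOT3-2, with 393 and 437 in shNTC. Its knockdown change of 0.80 ± 0.23 (SE, adjusted p = 0.168) was thus opposite in sign to the -0.44 of SEC61A1.

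ER exit and retrieval came next, with 11 of 18 genes lower in both shCNOT3 lines (61.1%, against 26.9% of all genes). The median was -0.18. The 3 named by the smallest p were SEC24A, another cargo adaptor of the coat (-0.81, SD of the lines 0.82, adjusted p = 0.259), the cargo receptor subunit MCFD2 (-0.39, adjusted p = 0.289) and TMED2 of the p24 family (-0.28, adjusted p = 0.310). Other ER degradation genes gave a median of 0.04, with 4 of 15 lower in both (26.7%, against 26.9% of all genes). Among the 4 were VCP, the ATPase that extracts proteins from the membrane (-0.37, adjusted p = 0.279 in limma), EDEM3 (-0.53, adjusted p = 0.288) and DERL2 (-0.39, adjusted p = 0.343). The other chaperones and folding enzymes gave a median of -0.05, with 6 of 18 lower in both (33.3%, against 26.9% of all genes). DNAJC1 was the 1 at an unadjusted p under 0.05 (0.41, adjusted p = 0.312 in limma). Of the 6 other sensors, proteases and CREB3 factors, 2 were lower in both (33.3%, against 26.9% of all genes). ATF6B, a relative of ATF6, gave -0.58 (adjusted p = 0.292 in limma).

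PERK activity was not measured, and the list of its arm and targets was set by gene name. In that list most values lay on the other side of 0. None of its 9 genes was lower in both shCNOT3 lines, against 26.9% of all genes. The 4 that were higher in both compare with 33.2% of all genes. The median knockdown change was 0.24, with -0.28 in shNTC. EIF2AK3, which encodes PERK, gave -0.13, ASNS -0.11 and PPP1R15B -0.20, and the rest were above 0. For ATF4 the DOX change was 0.24 in shNTC and the knockdown change was also 0.24. CHAC1, a glutathione-degrading enzyme downstream of ATF4, went from 123 to 102 with DOX in shNTC, from 135 to 345 in shCNOT3-1 and from 161 to 364 in shCNOT3-2. TRIB3, a pseudokinase also downstream of ATF4, went from 5541 to 4578 with DOX in shNTC, from 5281 to 8098 in shCNOT3-1 and from 5210 to 7725 in shCNOT3-2. In both genes the knockdown arrays lay above all others, with knockdown changes of 1.26 ± 0.30 (SE, adjusted p = 0.114) and 0.59 ± 0.16 (SE, adjusted p = 0.157). The test of the difference between this list and the members was not made.

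**Figure D4:**
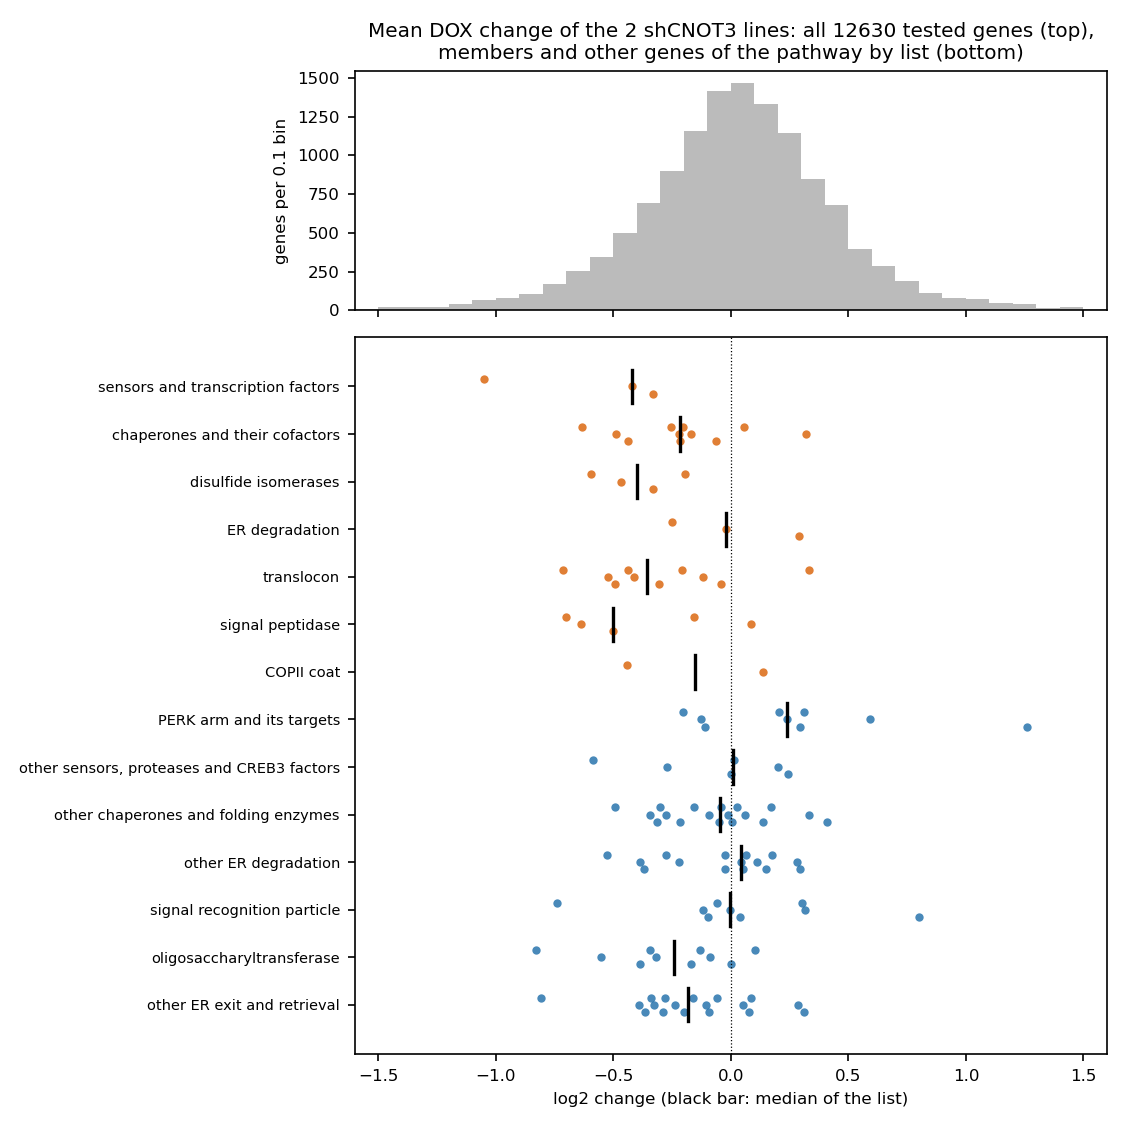
Knockdown change (log2, average of both shCNOT3 lines) of all 12630 tested genes as a histogram of genes per 0.1 bin (top), and of each tested member (orange) and other gene of the pathway (blue) by list (bottom), with a black bar at the median of each list; 75 genes of the histogram lie outside the axis. Over the brightest probe sets, medians run from -0.50 for signal peptidase to 0.24 for the PERK arm, beside 0.03 for all genes.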

How the data were processed

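The deposited table holds linear intensity values for 54675 probe sets, which the authors computed by MAS5, as the submitters' processing notes say; MAS5 settings are not given in the sources. With 2% of values trimmed from either end, each array had a mean of 500.1, so intensities are relative to the array's own total. RNA came from RNeasy columns and 500 ng of it was made into cRNA, per the labels' protocols. Here intensities were taken to log2 after adding 1. The brightest 1-gene probe set stood for a gene, and 12630 of 19775 genes were tested, those with a mean log2 of at least 5.96 (intensity 61.4), the median over probe sets. limma 3.58.1 in R 4.3.3 was used with an intensity-dependent prior, 2-sided, with Benjamini-Hochberg adjustment over all tested genes. The model held a block for stable line and a knockdown term (2 residual degrees of freedom, which hold the DOX change of shNTC and the difference between the hairpins), and a second model added a DOX term. Pairing comes from the labels, since both arrays of a pair are the same line. Deviations of same-line arrays correlated at 0.10, 0.09 and 0.05. All members were named by role. Values on every array were given for members at an unadjusted p under 0.05, the member furthest from 0 in each role, and the sensors. Other pathway genes were named at that p, at most 3 per list. Members and lists were chosen with earlier results of these data known. The fitting was tested on simulated data with planted changes larger than those of nearly all members. Recovery of changes of the members' size was not tested. Plots used matplotlib 3.10.9 in Python 3.11.15.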

Additional observations from a re-analysis of the deposited data

Results flagged for a closer look

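In 5 of 38 members the 2 hairpin lines moved in opposite directions with DOX, against 5042 of 12630 genes. These differences were not tested. The DOX change of shCNOT3-1 minus that of shCNOT3-2 (log2) was 0.71 for DNAJB9, -0.61 for SEC23B, -0.30 for HSPA5, 0.28 for EDEM1 and 0.26 for SSR2. Each rests on 1 pair of arrays per line.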

How the results depend on the processing

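The alternatives covered array scaling, the added constant, the filter, the probe set choice, the trend of the prior variance, the line block and leaving out a line. Members lower in both shCNOT3 lines numbered 25 to 30 under the alternatives, with 25 (of 37 members tested) for the mean of probe sets. No member was called in limma except with no replicate block, where 2 were, P4HB (adjusted p = 0.0183) and SPCS2 (adjusted p = 0.0494), among 191 genes called and with a median member change of -0.33. The number of all genes called for knockdown, 28 in the main model, was 64 with a constant of 64, 3 without a filter, 51 with a filter at 200, 6 with the mean of probe sets, 55 with plain _at probe sets first, 0 without the variance trend, and 39 to 62 with a line left out, 39 without shCNOT3-1, 62 without shCNOT3-2 and 57 without shNTC. The 13 members lower at an unadjusted p under 0.05 became 8 with the mean of probe sets, 6 without the variance trend, 5 without shCNOT3-1 and up to 14 with another line left out. Median member change was -0.33 with plain _at probe sets first and -0.29 to -0.24 with a line left out. Beyond shNTC it was -0.29 after quantile normalization, -0.36 after median centring, -0.35 with the mean of probe sets, -0.40 with plain _at probe sets first, and -0.36 to -0.34 with a hairpin line left out, when no residual degrees of freedom remain and no genes can be called. In that model median centring called 7 genes and plain _at probe sets 2, against 0. Signs turned for HSPA5 (-0.29 with the mean of probe sets, -0.0904 without shCNOT3-2, against 0.20 without shCNOT3-1), SSR3 (-0.0174 with the mean of probe sets) and SPCS3 (0.10 with plain _at probe sets first). SEC24D was too dim to be tested with the mean of probe sets. The cause of these shifts was not tested. With 6 arrays and 1 array per line and state, changes of the size seen in most members could not be separated from the spread between arrays gene by gene.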
